A study of Mus musculus with 6 samples.

Results

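Matrix metalloproteinases (MMPs), ADAMs, the related secreted ADAMTS enzymes and the tissue inhibitors of metalloproteinases (TIMPs) were followed in mouse macrophage-like cells given bacterial lipopolysaccharide (LPS). The members were all genes on the array whose single annotated symbol starts with Mmp, Adam, Adamts or Timp followed by a digit, a rule on names that uses no measured value, although the family was picked with earlier results of these data known. These were 47 of 10698 named genes, comprising 18 MMP, 22 ADAM, 3 ADAMTS and 4 TIMP genes read by 77 probes. RAW 264.7 cells, one established mouse line, were compared after 16 hours of culture with LPS (100 ng/ml) plus LPS-binding protein (LBP, 100 pM), the serum protein that passes LPS to its receptor complex, and after the same time without either. Parts of the sources write the line's name as 264.4. Both RNAs were hybridised together on 6 two-colour arrays, with treated RNA in Cy5 on 3 arrays and in Cy3 on 3, each orientation holding sets 1, 2 and 3. The labels do not say that the sets were separate cultures, so p-values measure the spread between sets, which may be technical.

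MMPs are zinc proteases made as inactive precursors that cut collagen, elastin and other matrix proteins and that trim chemokines and cytokines. ADAMs are membrane-anchored relatives, of which the catalytic ones release the outer domains of membrane proteins, among them the cytokine TNF. TIMPs bind the active site of MMPs and of some ADAMs, and macrophages are a known source of several enzymes and inhibitors of this family.

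Every value below is a log2 ratio of treated over untreated cells within one array, so no level of a gene in either state is known, and neither the presence of a gene nor that of macrophage markers could be checked by level. The direction of the deposited ratios is not stated. Cy5 over Cy3 was assumed here as the likely reading, on the basis that each array's labels name its Cy5 RNA as test and its Cy3 RNA as control. Genes known to be induced by LPS, such as Tnf, Il1b and Ccl2, are higher in treated cells under this reading, which also entered the choice, so their rises are not independent of it. Under the opposite reading every sign below would turn, and each rise would be a fall of the same size. As deposited, arrays of opposite orientation correlated at -0.831 to -0.585 across probes, and at 0.585 to 0.831 after turning to treated over untreated. Arrays of one orientation correlated at 0.770 to 0.832, which turning leaves unchanged. The 2 arrays of a set were averaged, and the value of a gene is the mean ± SD of its 3 sets (n = 3) with an adjusted p from limma over 9607 genes, called under 0.05. A gene entered this test if at least 1 of its probes had a ratio on all 6 arrays, as 45 of the 47 members did. Mmp13 and Adam25 did not.

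Most members stayed close to equal between treated and untreated cells. Of 45 members tested, 6 rose (Adam8, Timp1, Mmp14, Adam9, Mmp19 and Adam3), 1 fell (Adam22) and 38 did not pass. Over all 9607 genes, 31.4% passed, 16.8% up and 14.6% down, against 15.6% of the members, 13.3% up and 2.22% down. With the ratios read the other way, 14.6% of all genes would be up and 16.8% down, and 2.22% of the members up and 13.3% down. The members' median ratio was 0.02 and that of all genes -0.01. The median distance from 0 was 0.06 for members and 0.14 for all genes, and the median SD between sets was 0.10 and 0.12. Values averaged over several probes made up 24 of the 45 members but 1846 of all 9607 genes. Such averaging can narrow both measures, and its part in the difference was not tested. Among these 45, at least 2-fold higher levels were reached by 2, Adam8 and Timp1, and Mmp13, tested over 2 sets, is described below. Among the 38 that did not pass, values lay between -0.21 and 0.21, with 29 within 0.1 of 0, and 4 had an unadjusted p under 0.05. Counting called genes too, 11 of the 45 members had an unadjusted limma p under 0.05, against 3862 of all 9607 genes. RNA of whole cultures cannot tell a change in the share of cells that make a transcript from a change in its amount per cell.

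**Figure D1:**
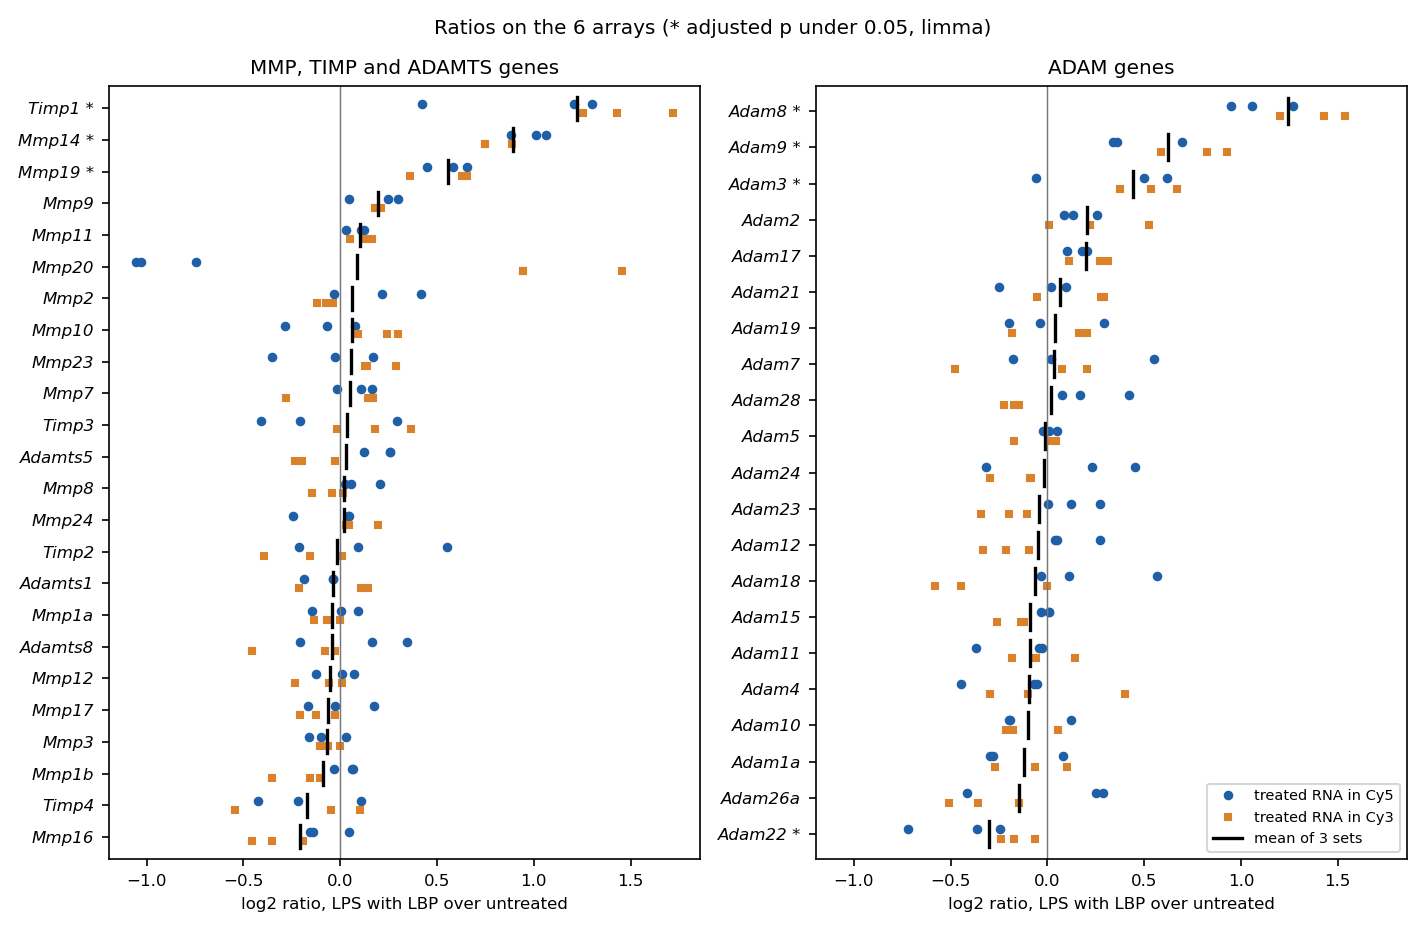
Log2 ratios of treated over untreated cells (horizontal axis) for the 45 members with a ratio on all 6 arrays, one gene a row; circles are the 3 arrays with treated RNA in Cy5, squares the 3 with treated RNA in Cy3, vertical bars the mean of 3 sets, and asterisks an adjusted p under 0.05. Timp1, Mmp14, Mmp19, Adam8 and Adam9 stand to the right of 0 on every array, most other rows straddle 0, and Mmp20 splits by dye.

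Among the inhibitors, Timp1 rose and its 3 relatives did not pass. Timp1, a secreted inhibitor of most soluble MMPs, had ratios of 0.42, 1.30 and 1.21 in sets 1 to 3 with treated RNA in Cy5 and of 1.72, 1.43 and 1.26 with treated RNA in Cy3. All 6 arrays were above 0, and the lowest was the Cy5 array of set 1. The gene rose 2.33-fold (log2 1.22 ± 0.15, adjusted p = 8.56e-05). The low array came from 1 of the 2 Timp1 probes. Probe 17645 read -0.50 there and between 1.14 and 1.97 on the other 5 arrays, while probe 1859 read 1.22 to 1.46 on all 6. Each probe passed on its own, at log2 1.34 (adjusted p = 3.48e-05) for probe 1859 and 1.10 (adjusted p = 0.000728) for probe 17645.

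The other inhibitors showed no shared shift. Timp2, which also takes part in activating pro-Mmp2 at the cell surface, was at -0.02 ± 0.09, and its arrays ran between -0.40 and 0.55. Timp3, which binds to matrix and also inhibits Adam17, was at 0.03 ± 0.18. Timp4 was at -0.17 ± 0.28 (adjusted p = 0.309), with -0.49 in set 2 against 0.03 and -0.06 in sets 1 and 3.

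Mmp13, the main collagenase of rodents, was higher in treated cells on every array that gave a ratio, but each of its 2 probes lacked a ratio on 1 array of set 2. Probe 9557 read 1.27, 1.07 and 2.52 in sets 1 to 3 with treated RNA in Cy5, and 1.47 and 2.09 in sets 1 and 3 with treated RNA in Cy3. Probe 10575 read 0.96 and 1.05 in sets 1 and 3 with treated RNA in Cy5, and 0.40, 0.44 and 0.83 in sets 1 to 3 with treated RNA in Cy3. Set 3 was the highest set for both probes, and probe 9557 was the higher probe in each array that both measured. In a test that took genes with both arrays of at least 2 sets, where 29.9% of 10215 genes were called and 16.1% called up, Mmp13 rose 2.51-fold (log2 1.33 ± 0.42, n = 2 sets, adjusted p = 0.00195). With set 2 added from the 1 probe left on each array, a setting chosen after seeing the data, the rise was 2.20-fold (log2 1.14 ± 0.44, adjusted p = 0.0024). With the missing ratios taken as equal levels it was 1.01 and did not pass (adjusted p = 0.104).

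**Figure D2:**
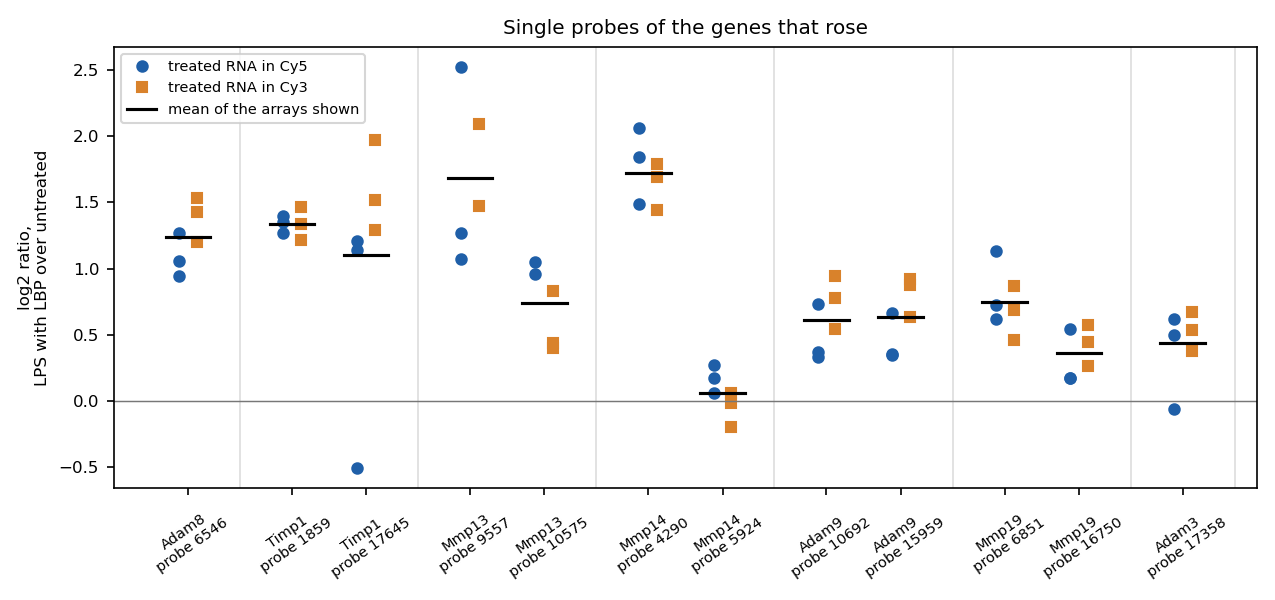
Log2 ratios of treated over untreated cells (vertical axis) for each probe of the 6 genes called up over 45 members and of Mmp13; circles are arrays with treated RNA in Cy5, squares those with treated RNA in Cy3, and bars the mean of the arrays shown. Mmp14 probe 4290 lies between 1.44 and 2.06 while its probe 5924 lies around 0, and 1 array of Timp1 probe 17645 lies at -0.50.

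Mmp13 lies at the end of a run of 10 neighbouring MMP genes on chromosome 9 in the GRCm38.p6 gene table, of which 9 were on the array. In gene order these were Mmp13, Mmp12, Mmp1b, Mmp3, Mmp1a, Mmp10, Mmp8, Mmp20 and Mmp7, with Mmp27, not on the array, between Mmp8 and Mmp20. None of the 8 members of this run tested in limma passed. An unadjusted p under 0.05 was reached by 0 of the 8, against 3862 of all 9607 genes. The values of the 8 lay between -0.09 (Mmp1b) and 0.09 (Mmp20). The other collagenases were at -0.04 ± 0.03 (Mmp1a), -0.09 ± 0.05 (Mmp1b) and 0.02 ± 0.06 (Mmp8, the neutrophil collagenase). The stromelysins Mmp3 and Mmp10, which cut proteoglycans and can activate other MMPs, were at -0.07 ± 0.07 and 0.06 ± 0.07, and matrilysin, Mmp7, was at 0.05 ± 0.10.

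The promoters of this run are shown because many MMP genes are known to carry a binding site of AP-1, a transcription factor of Fos and Jun proteins, close to the start. The letters TGANTCA, which read the same on both strands, were searched in the 250 bases before each start in the RefSeq promoter table of GRCm38.p6. They were found in 8 of the 9 genes of the run on the array, in 2 of the 19 other members that the table holds, and in 6.75% of all 32851 promoters. The match in Mmp13 lies at bases 35 to 29 before the start. The windows of 30 bases below have the match in capitals.
Mmp13 (chr9:7272468-7272497, plus strand): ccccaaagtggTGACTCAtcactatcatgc
Mmp12 (chr9:7347319-7347348, plus strand): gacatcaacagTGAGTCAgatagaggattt
Mmp1b (chr9:7388101-7388130, minus strand): gttacaaagccTGAGTCAtatagcctctgg
Mmp3 (chr9:7445765-7445794, plus strand): ggaagcaattaTGAGTCAgttttcgggtga
Mmp1a (chr9:7464057-7464086, plus strand): gttgtcaaccaTGAGTCAcatagcctctgg
Mmp10 (chr9:7502268-7502297, plus strand): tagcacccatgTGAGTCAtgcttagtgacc
Mmp20 (chr9:7628125-7628154, plus strand): catttgagacaTGAATCAtcacttacaggg
Mmp7 (chr9:7692016-7692045, plus strand): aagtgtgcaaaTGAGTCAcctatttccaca
Mmp13 alone has TGACTCA, while Mmp12, Mmp1b, Mmp3, Mmp1a, Mmp10 and Mmp7 have TGAGTCA, the same site read on the other strand, and Mmp20 has TGAATCA. The letters occur in Mmp13, which rose in the test over 2 sets, and in 7 neighbours that did not pass. Over all tested genes with a promoter in the table, 17.5% of the 555 with a match were called up, and 17.0% of the 7086 without one. A match is a description of the letters only, and whether AP-1 binds or acts at any of these genes was not tested.

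The whole 250 bases are printed for the 4 rising members that the table holds, with matches in capitals to AP-1, to the GC box GGGCGG, to a core of the interferon-stimulated response element (GAAA, 2 bases of any kind, then GAAA) or to the NF-kappaB consensus, each searched on both strands. These were found in 6.75%, 32.7%, 2.98% and 3.90% of all promoters.
Mmp13 (chr9:7272264-7272513, plus strand): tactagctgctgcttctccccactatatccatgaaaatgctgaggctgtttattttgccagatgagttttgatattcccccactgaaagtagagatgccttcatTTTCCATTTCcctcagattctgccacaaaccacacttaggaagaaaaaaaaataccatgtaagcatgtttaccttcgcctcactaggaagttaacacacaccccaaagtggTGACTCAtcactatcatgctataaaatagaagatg
Timp1 (chrX:20869916-20870165, plus strand): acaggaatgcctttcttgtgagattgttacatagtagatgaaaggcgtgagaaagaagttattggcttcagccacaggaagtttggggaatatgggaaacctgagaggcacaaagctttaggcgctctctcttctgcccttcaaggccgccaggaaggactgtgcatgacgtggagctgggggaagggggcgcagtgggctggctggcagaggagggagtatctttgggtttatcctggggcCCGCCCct
Mmp14 (chr14:54431348-54431597, plus strand): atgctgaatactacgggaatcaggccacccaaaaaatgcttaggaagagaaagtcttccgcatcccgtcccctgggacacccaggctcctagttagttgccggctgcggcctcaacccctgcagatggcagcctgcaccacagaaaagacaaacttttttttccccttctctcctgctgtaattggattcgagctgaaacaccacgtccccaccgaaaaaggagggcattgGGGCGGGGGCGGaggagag
Adam8 (chr7:139992563-139992812, minus strand): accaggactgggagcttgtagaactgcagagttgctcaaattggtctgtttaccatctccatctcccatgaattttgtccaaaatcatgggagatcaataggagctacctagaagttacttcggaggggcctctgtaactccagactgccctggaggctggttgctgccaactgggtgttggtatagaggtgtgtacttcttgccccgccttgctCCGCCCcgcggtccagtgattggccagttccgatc
Beside its AP-1 match, Mmp13 holds 1 match to the interferon-stimulated letters, at bases 146 to 137 before the start. Timp1, Adam8 and Mmp14 each hold GC box matches within 35 bases of the start, 2 adjoining ones in Mmp14, and no letters of the other 3 motifs were found in their windows. GC content was 40.4% in the Mmp13 window and 52.8% to 55.2% in the other 3.

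Of the membrane-bound MMPs, Mmp14 rose and Mmp16, Mmp17, Mmp23 and Mmp24 did not pass. Mmp14, the membrane-type enzyme that activates pro-Mmp2 and cuts collagen around the cell, rose 1.85-fold (log2 0.89 ± 0.07, adjusted p = 0.000176). The gene value averages 2 probes that disagree. Probe 4290 read 2.06, 1.85 and 1.49 in sets 1 to 3 with treated RNA in Cy5 and 1.69, 1.79 and 1.44 with treated RNA in Cy3, a 3.30-fold rise (adjusted p = 3.74e-05). Probe 5924 read 0.06, 0.17 and 0.27 with treated RNA in Cy5 and -0.19, -0.02 and 0.06 with treated RNA in Cy3, and did not pass (log2 0.06, adjusted p = 0.658). The 6 values of one probe do not overlap those of the other, and their span of 1.66 was the widest among the 24 members with several probes. The median span was 0.06 in these members and 0.12 in all 1846 genes with several probes. Probe sequences were not analysed here, so which probe reads Mmp14 more faithfully was not tested.

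Mmp19, a secreted MMP outside the collagenase and gelatinase classes, rose 1.47-fold (log2 0.56 ± 0.09, adjusted p = 0.00167). Its gene values were 0.58, 0.45 and 0.66 with treated RNA in Cy5 and 0.36, 0.63 and 0.66 with treated RNA in Cy3. All were above 0, and both probes passed, at 0.75 and 0.36.

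The gelatinases, which digest denatured collagen and basement membrane, did not pass. Mmp9, gelatinase B, was above 0 on all 6 arrays, between 0.04 and 0.30, with a mean of 0.19 ± 0.06 (adjusted p = 0.0795). One of its 3 probes, probe 5892, passed on its own at 0.30 (adjusted p = 0.0472), where 30.8% of single probes passed. Mmp2, gelatinase A, was at 0.06 ± 0.13 and was read by 1 probe, since the other gave no ratio on any array. Mmp12, the elastase named for macrophages, was at -0.05 ± 0.11. Its 2 probes stood at 0.18 and -0.29, and neither passed (adjusted p = 0.152 and 0.0553). The probes of the stromelysin Mmp11 stood at -0.12 and 0.32, the second of which passed (adjusted p = 0.0478), and its gene value was 0.10 ± 0.05. Mmp16 was at -0.21 ± 0.12 (adjusted p = 0.088), with 1 probe at -0.37 (adjusted p = 0.0154) and the other at -0.04.

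Mmp20, enamelysin, an enzyme of forming tooth enamel, gave opposite ratios in the 2 dye orientations. Probe 5825 read -1.84, -1.38 and -2.17 with treated RNA in Cy5 and 2.16, 2.78 and 2.05 with treated RNA in Cy3, so, in the assumed direction, the Cy3 channel was the brighter one on all 6 arrays whichever RNA it held. Its other probe, 3694, stayed between -0.28 and 0.14. The gene's orientations differed by -2.06 (limma, adjusted p = 0.0004), and the average of both was 0.09 ± 0.23. Mmp20 was the 1 member of 45 with a dye effect, a call made for 3% of all 9607 genes.

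**Figure D3:**
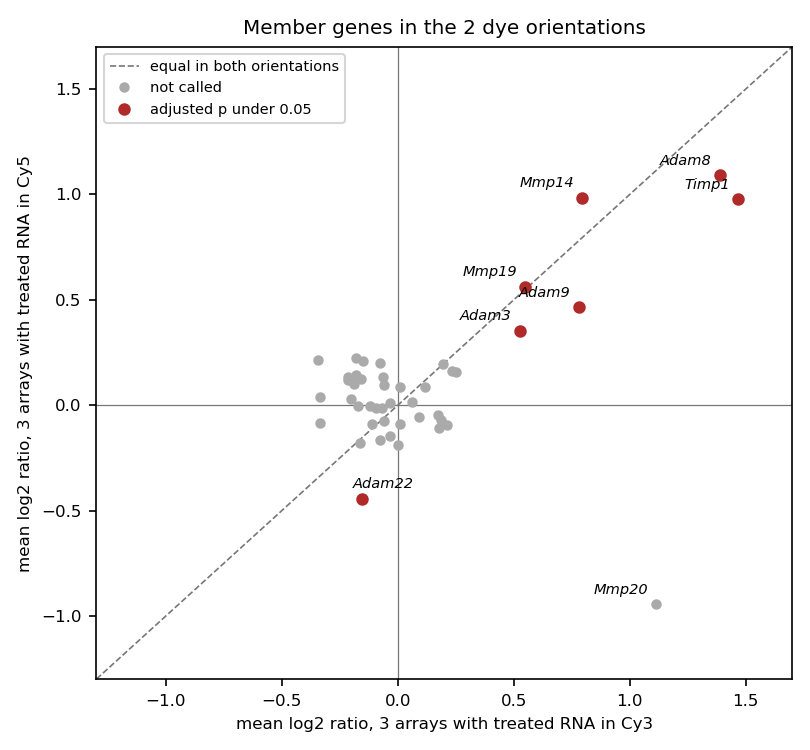
Mean log2 ratio of treated over untreated cells over the 3 arrays with treated RNA in Cy5 (vertical axis) against the mean over the 3 arrays with treated RNA in Cy3 (horizontal axis) for 45 members; red points were called, and the dashed line marks equal values. The 7 called genes have one sign in both orientations, and Mmp20 lies at -0.94 with treated RNA in Cy5 and at 1.12 with treated RNA in Cy3.

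Of the 38 members that did not pass, 22 (57.9%) had opposite signs in the 2 orientations, against 50.8% of the 6589 genes of the whole table that did not pass. The 6 arrays shared one sign in 10 of the 45 members, against 35.6% of all genes. These 10 were 6 of the called genes (Timp1, Mmp14, Mmp19, Adam8, Adam9 and Adam22) and Adam2, Adam17, Mmp9 and Mmp11, which did not pass.

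Of the 8 broadly expressed catalytic ADAMs, 2 rose and 6 did not pass. Adam8, a protease of myeloid cells that sheds adhesion molecules, rose 2.36-fold, the highest ratio of the 45 members with 3 sets in the assumed direction (log2 1.24 ± 0.15, adjusted p = 7.89e-05). Its arrays read 0.95, 1.06 and 1.27 in sets 1 to 3 with treated RNA in Cy5 and 1.20, 1.54 and 1.43 with treated RNA in Cy3. All lay above those of every other ADAM gene on the same array. These come from probe 6546, as the second Adam8 probe gave no ratio on any array. Adam9, another sheddase, rose 1.54-fold (log2 0.62 ± 0.18, adjusted p = 0.00214), with 0.34, 0.36 and 0.70 with treated RNA in Cy5 and 0.59, 0.83 and 0.93 with treated RNA in Cy3. Its 2 probes gave nearly equal means, 0.61 and 0.63, and set 3 was the highest set.

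The 2 best known sheddases moved little. Adam17, the enzyme that releases TNF, read 0.10 to 0.31 on the 6 arrays, with a mean of 0.20 ± 0.06, and did not pass (adjusted p = 0.0752). It passed when the 6 arrays were taken as separate replicates (adjusted p = 0.0275), and so did Mmp9 (adjusted p = 0.0301). Adam10, which cuts Notch receptors and many adhesion molecules, was at -0.10 ± 0.16 (adjusted p = 0.451), with both probes near 0.1 in set 2 and below 0 in sets 1 and 3. Adam12, Adam15, Adam19 and Adam28 lay between -0.09 and 0.04.

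Among ADAMs known from the male reproductive tract, Adam3 was called and 9 of the 10 tested were not. Adam3, a sperm surface protein, was at 0.50, -0.06 and 0.62 in sets 1 to 3 with treated RNA in Cy5 and at 0.54, 0.38 and 0.67 with treated RNA in Cy3. Thus 5 of 6 arrays were above 0, and the mean rise was 1.36-fold (log2 0.44 ± 0.25, adjusted p = 0.0179). The call was lost without set 1 (log2 0.40, adjusted p = 0.0913), from the 3 treated-Cy5 arrays by themselves (0.35, adjusted p = 0.141), and when exact zeros counted as measured ratios (adjusted p = 0.0953). In the gene table Adam3 lies in a run of 5 neighbouring ADAM genes on chromosome 8, in the order Adam18, Adam3, Adam5, Adam32 and Adam9, where Adam18 (-0.06 ± 0.16) and Adam5 (-0.01 ± 0.06) did not pass and Adam32 was not on the array. Adam2, a subunit of the sperm protein fertilin, was at 0.21 ± 0.11 (adjusted p = 0.0843). Adam1a, Adam4, Adam7, Adam21, Adam24 and Adam26a lay between -0.15 and 0.06. Adam25 lacked a ratio on 1 array of set 3 and was at 0.00 and -0.04 in sets 1 and 2.

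The neural ADAMs, which lack a catalytic site, gave the one fall. Adam22, a receptor of secreted LGI proteins at synapses, read -0.36, -0.72 and -0.25 with treated RNA in Cy5 and -0.06, -0.17 and -0.24 with treated RNA in Cy3. All 6 arrays were below 0, and the level fell to 0.812 of that in untreated cells (log2 -0.30 ± 0.13, adjusted p = 0.0266). This call was lost without set 1 (-0.34, adjusted p = 0.0657), without set 2 (-0.23, adjusted p = 0.126), when exact zeros counted as measured ratios (adjusted p = 0.0658) and from the 3 treated-Cy3 arrays by themselves (-0.16, adjusted p = 0.224). Adam11 and Adam23 were at -0.09 ± 0.17 and -0.04 ± 0.05. The ADAMTS enzymes, secreted relatives that cut aggrecan and versican among others, were at -0.04 ± 0.14 (Adamts1), 0.03 ± 0.02 (Adamts5) and -0.04 ± 0.11 (Adamts8). None of the 3 passed in limma, and 0 had an unadjusted p under 0.05, against 3862 of all 9607 genes.

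Genes around the family were read from the same test, where 31.4% of all genes passed. Among 17 regulators of metalloproteinases, 2 rose, 2 fell and the median was -0.06. Lrp1, the endocytic receptor that clears protease and inhibitor complexes, was 1.81-fold lower in treated cells (log2 -0.86 ± 0.13, adjusted p = 0.000342). The tetraspanins Tspan17 and Tspan5, both partners that steer Adam10, went opposite ways, at 0.61 ± 0.24 (adjusted p = 0.00437) and -0.43 ± 0.08 (adjusted p = 0.0045). The convertase Pcsk7 rose (0.52 ± 0.03, adjusted p = 0.00153). Furin, which activates many metalloproteinase precursors, was at 0.13 ± 0.09, the membrane inhibitor Reck at -0.08 ± 0.01 and the MMP inducer Bsg at -0.22 ± 0.34, and none of these passed (adjusted p = 0.249, 0.431 and 0.269).

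Membrane proteins listed here as shed by ADAMs gave 16 of 57 up and 9 down, 43.9% called, with a median of 0.00. Leaving out set 1, 2 or 3 gave 16 up each time, and 6, 7 and 8 down. Axl, a receptor kinase of apoptotic cell uptake, and the death receptor Fas rose most, 7.84-fold (log2 2.97 ± 0.20) and 7.32-fold (2.87 ± 0.11). Tnf, the substrate that gave Adam17 its other name, rose 3.18-fold (1.67 ± 0.19, adjusted p = 3.01e-05), and Hbegf, an EGF receptor ligand, 1.46-fold (0.55 ± 0.06, adjusted p = 0.00143). Trem2, a lipid-sensing receptor, and Lrp1 fell most (-0.86 ± 0.10 and -0.86 ± 0.13). Among 17 genes for chemokines, cytokines and a latent TGF-beta binding protein that proteases trim or activate, 9 rose in limma and 0 fell. With set 1, 2 or 3 left out, 7 rose and 0 fell each time. Ccl2 (4.69 ± 0.24) and Il1b (4.63 ± 0.55) led the rises. At an unadjusted p under 0.05 also 0 fell, against 1860 of all 9607 genes. Tnf, Il1b and Ccl2 entered the choice of direction, so their rises, and the lack of falls here, are not independent of it.

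**Figure D4:**
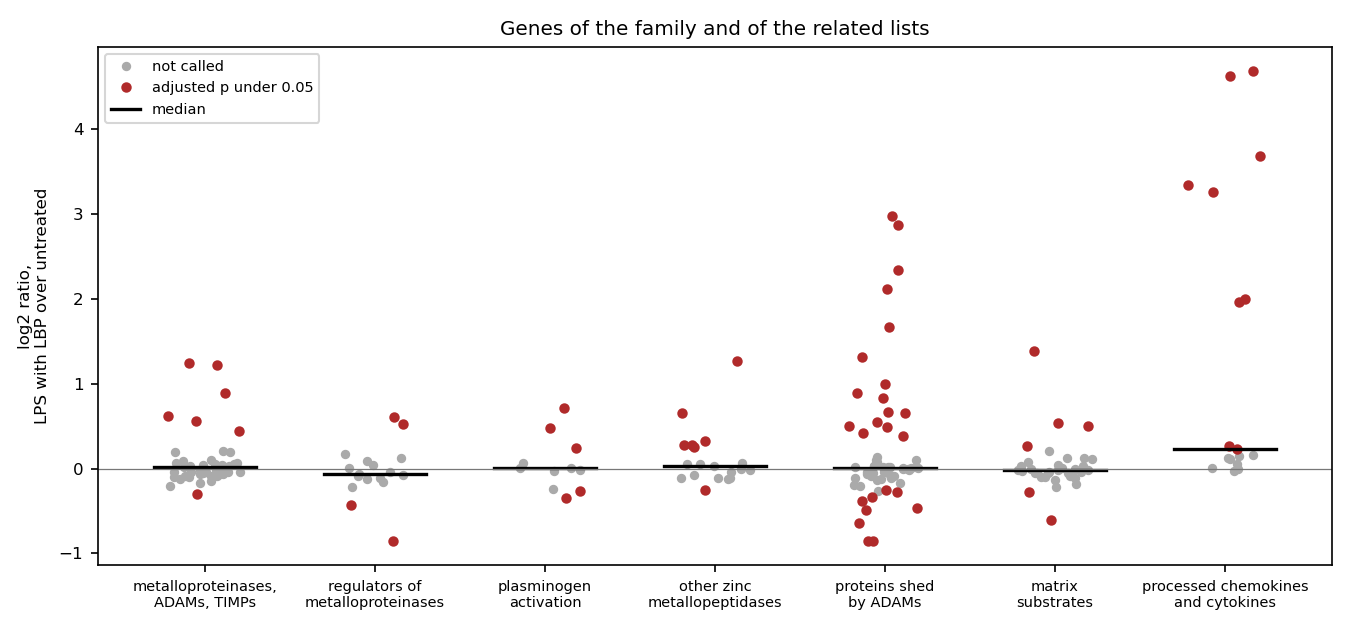
Log2 ratio of treated over untreated cells (vertical axis) for the tested genes of the family and of 6 related lists, one point a gene, with red points called at an adjusted p under 0.05 and bars at each list's median. The family's points lie between -0.30 and 1.24, while shed proteins reach 2.97 and processed chemokines and cytokines 4.69.

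Plasminogen activation genes, listed together with serpins of other targets such as Serpinb9, gave 3 of 11 up and 2 down. The counts were 1 up and 0 down without set 1, and 2 up and 1 down without set 2 and without set 3. Plaur, the receptor of the activator urokinase, rose 1.64-fold (log2 0.71 ± 0.35, adjusted p = 0.00602), while urokinase itself (Plau) was at -0.02 ± 0.16. Serpinb9, an inhibitor of granzyme B, was at 0.48 ± 0.28 and Serpinf2, the plasmin inhibitor, at -0.35 ± 0.19, and neither was called once set 1 was left out (0.35, adjusted p = 0.0926, and -0.29, adjusted p = 0.134). S100a10, a subunit of a plasminogen receptor, was at -0.27 ± 0.06 and lost its call without any of sets 1, 2 and 3 (adjusted p = 0.0979, 0.0708 and 0.0983). Other zinc metallopeptidases, listed together with ADAMTS-like proteins, gave 6 of 19 up and 1 down, the ADAMTS-like Adamtsl2. Without sets 1, 2 and 3 the counts were 2, 3 and 4 up and 0 down. Carboxypeptidase D (Cpd) rose 2.40-fold (1.26 ± 0.15, adjusted p = 7.25e-05) and Erap1, which trims peptides for MHC class I, 1.57-fold (0.65 ± 0.08, adjusted p = 0.00079). Adamtsl2, an ADAMTS-like protein without a protease domain, was at -0.25 ± 0.06 and lost its call without set 1, 2 or 3 (adjusted p = 0.102, 0.102 and 0.125).

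Matrix substrates gave 4 of 34 up and 2 down, with 3 up and 1 down without set 1, 2 up and 1 down without set 2, and 3 up and 1 down without set 3. The small proteoglycan lumican (Lum) rose 2.62-fold (log2 1.39 ± 0.39, adjusted p = 0.000505), and the laminin chain Lama4 was 1.52-fold lower (-0.60 ± 0.09, adjusted p = 0.00112). Decorin (Dcn), a related proteoglycan, was at 0.06, 0.63 and 0.92 in sets 1 to 3 (0.54 ± 0.44, adjusted p = 0.0366) and lost its call without set 2 (0.49, adjusted p = 0.142). Nid2, a basement membrane protein, was at -0.27 ± 0.16 and lost its call without set 1, 2 or 3 (adjusted p = 0.0526, 0.206 and 0.0709). Dcn was also the 1 of 7 fibroblast markers that passed, and those markers' ratios ran from -0.14 to 0.54. Of the macrophage markers, 5 of 6 rose, of which Cd68 (0.34 ± 0.13) lost its call without set 1 or set 2 (adjusted p = 0.108 and 0.0643), and Csf1r, at -0.27 ± 0.08, was called down but not without set 1 or set 2 (adjusted p = 0.0837 and 0.13). Among 4 epithelial, 3 T cell and 5 neutrophil markers limma called 0. At an unadjusted p under 0.05 they held 0, 0 and 1, where all 9607 genes held 3862. Of 3 B cell markers Cd79a passed (0.35 ± 0.12). The part of such markers in the matrix values was not tested.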

How the data were processed

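The authors deposited 1 table of 16281 probes on 6 two-colour arrays. As deposited, its values are log2 ratios made by the authors from both channels, read from their signs and from the maximum of 6.64, which equals a ratio of 100; how the ratios were corrected and normalized is not given in the sources. Column medians were 0 as deposited and were left so. Exact zeros (9.56% to 12.9% of an array) were taken as missing.

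Symbols came from the platform annotation (13738 probes with 1 symbol, 52 with several, 2491 unlisted). Of these, 13694 Entrez identifiers matched GRCm38.p6, and 0 symbols changed. Ratios were turned to treated over untreated, complete probes (no missing array) were averaged per gene, the 2 arrays of a set were averaged, and set means were tested against 0 with limma 3.58.1 in R 4.3.3 (two-sided, Benjamini-Hochberg). Dye effects used the 6 arrays with set as a random block. Same-numbered arrays of opposite dye had deviations correlated at 0.188, 0.0498 and 0.544 for sets 1, 2 and 3, so the numbers pair the arrays clearly in set 3 only.

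All members are accounted for; from related lists the 2 strongest rises and falls among called genes are named, with 6 genes fixed by name, of which Rhbdf2 was not on the array. Plau, Cd68, Csf1r and Cd79a were named after values were seen. Members, lists and motifs were chosen with earlier results of these data known. Promoter sequences are from RefSeq (28 of 47 members matched). Array number limits the precision. Alternatives are given in the closing section.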

Additional observations from a re-analysis of the deposited data

Results flagged for a closer look

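Adam5, a testis ADAM, stood apart on 1 array. It read -0.17 in set 3 with treated RNA in Cy3, against -0.02 to 0.05 on the other 5 arrays, and its 2 probes read -0.18 and -0.17 there. In set 2, probe 14557 read 0.40 with treated RNA in Cy5 and -0.39 with it in Cy3, while probe 18104 read -0.30 and 0.43. These opposite values nearly cancel in the gene value, and the flagged array was not the lowest of either probe. Of 45 members examined in this way 1 stood out, and chance alone marks about 5% of such groups. Mmp20 differed between the 2 dye orientations by -2.06 (limma, adjusted p = 0.0004), with means of -0.94 on arrays with treated RNA in Cy5 and 1.12 on arrays with treated RNA in Cy3.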

How the results depend on the processing

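Counts of changed members were 7 in the main test and between 5 and 10 under the alternatives, and counts over all genes and over the related lists stayed within 1.5 times the main counts. The 10 came from testing each probe alone, where a gene of the family or of a list counted if any of its probes passed. The whole-table count in that setting was of probes, 4129 of 13418. Taking the 6 arrays as separate replicates called 3381 genes and 9 members, and taking the set as a random replicate block (paired by set number) called 3378 genes and 9 members, with Adam17 and Mmp9 added in both (adjusted p = 0.0275 and 0.0301, and 0.0277 and 0.0304). From the 3 treated-Cy5 arrays by themselves Mmp20 was at -0.94 (adjusted p = 0.00179), the opposite sign to its mean. From the 3 treated-Cy3 arrays it was at 1.12 (adjusted p = 0.000376), and Mmp16 (-0.33) and Adam26a (-0.34) passed too (adjusted p = 0.0292 and 0.0373). The dye effect was called for 288 genes, for 35 with no replicate block and for 101 with exact zeros kept as ratios; the cause was not tested. The calls of Adam8, Timp1, Mmp14, Adam9 and Mmp19 held under all 14 alternatives run on gene values. For Mmp14 these alternatives all combine its 2 disagreeing probes. Tested alone, its probe 5924 did not pass (log2 0.06, limma, adjusted p = 0.658). Among members that did not pass, 25 changed sign in at least 1 alternative without being called. No depth or signal over background is given in the values used here, so a ratio near 0 cannot be told from a gene below detection.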
